A study of Homo sapiens with 10 samples.

Results

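The genes described here encode enzymes of glycolysis, the route that splits glucose into pyruvate, and the enzyme that turns pyruvate into lactate. They are 10 genes chosen by symbol, HK2, GPI, PFKP, ALDOA, TPI1, PGK1, PGAM1, ENO1, PKM and LDHA, out of 23398 gene symbols that have a value in at least 1 of the deposited tables. All 10 have values in NB4 cells. In Kasumi-1 cells 5 of them, HK2, GPI, PFKP, PGAM1 and ENO1, were matched to a value, and ALDOA, TPI1, PGK1, PKM and LDHA were not analysed here in that line.

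The study sequenced messenger RNA of 2 leukaemia lines, as 10 libraries in all. Kasumi-1 cells incubated with 1 µM JOA for 48 h gave 3 libraries, and Kasumi-1 cells incubated with the control for 48 h gave 3. NB4 cells incubated with 1 µM JOA for 48 h gave 2 libraries, and NB4 cells incubated with the control for 48 h gave 2. The labels name the agent only as JOA and the control only as control, and the source label of the NB4 JOA libraries names I13 where their titles and agent labels name JOA. Kasumi-1 is an established acute myeloid leukaemia line that carries the RUNX1-RUNX1T1 fusion, and NB4 is an established acute promyelocytic leukaemia line that carries the PML-RARA fusion. Each line stands for 1 patient's leukaemia, and the labels do not say whether the replicates came from separate cultures, so the p-values cover no more than the variation among these libraries, which may be technical. Both lines held the myeloid marker MPO at a high level. It averaged 5481 FPKM in JOA-treated and 5762 FPKM in control Kasumi-1 cells, and 5282 TPM in JOA-treated and 7838 TPM in control NB4 cells. RUNX1T1, the fusion partner in Kasumi-1, averaged 18.6 FPKM in its JOA libraries and 18.8 FPKM in its control libraries, and was under the filter in NB4. Of 26 marker genes listed for blood cell types, epithelium and fibroblasts, 8 passed the filter in Kasumi-1 and 15 in NB4, and limma without pairing called 0 of them between JOA and control in either line. At an unadjusted p under 0.05 there were 0 in Kasumi-1, where 16.4% of all features reached that level. In NB4 there were 9, of which 5 were lower and 4 higher with JOA, and 10.6% of all genes reached it. EPCAM, listed for epithelium, averaged 36.9 FPKM in JOA-treated and 41.0 FPKM in control Kasumi-1 cells. In NB4 it averaged 15.1 TPM with JOA and 12.6 TPM in control cells.

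Glycolysis starts with the phosphorylation of glucose by hexokinase and runs through a set of sugar phosphates to pyruvate. Hexokinase, phosphofructokinase and pyruvate kinase catalyse its irreversible steps, where flux is controlled, and the enzymes between them work close to equilibrium. Many of these genes are known targets of the transcription factors HIF1A and MYC. Leukaemia cells, like other proliferating cells, take up much glucose and release part of it as lactate.

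Expression is given in Kasumi-1 as FPKM (fragments scaled by transcript length and by the mapped total) and in NB4 as TPM (a share of all transcripts, scaled to a fixed total), so levels were compared between genes within a line and not between the lines. A change is the JOA mean minus the control mean of log2(value + 1), tested with limma over all genes that passed a filter on low values, and a gene was called at a Benjamini-Hochberg adjusted p under 0.05. The +1 makes such changes smaller for genes with low values. In bulk libraries, fewer cells of a type and less RNA per cell cannot be told apart.

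In Kasumi-1 cells 0 of the 5 matched genes were called. The test called 0 of 12101 features in this line (0%), and 1982 features (16.4%) had an unadjusted p under 0.05, against 0 of the 5 genes. The groups overlapped for all 5, where 7.10% of features were lower and 16.0% higher with JOA without overlap. None of the 5 was called when libraries with the same replicate number were taken as pairs, a fit that called 985 features (8.14%), 736 higher and 249 lower with JOA. With pairing and median-ratio scaling of the libraries together, an alternative chosen after seeing the data, 1 of the 5, PGAM1, was called as lower, in a fit that called 1120 features (9.26%), 457 higher and 663 lower.

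HK2 (chromosome 2, 74833981 to 74893359, GRCh38), a hexokinase that binds mitochondria, had 40.0, 43.8 and 38.1 FPKM in the JOA libraries and 36.8, 41.7 and 38.9 FPKM in the control libraries. The groups overlapped, and the difference was 0.053 on the log2 scale (SE 0.072, 95% interval -0.12 to 0.22, limma adjusted p = 0.753). GPI (chromosome 19, 34359480 to 34402413), which turns glucose 6-phosphate into fructose 6-phosphate, had 52.3, 46.7 and 37.2 FPKM with JOA and 49.1, 44.1 and 42.5 FPKM in control cells. The lowest and the highest GPI values were both JOA libraries, and the difference was -0.0053 (SE 0.12, limma adjusted p = 0.990). PFKP (chromosome 10, 3066333 to 3137712), the platelet form of phosphofructokinase, had 40.2, 43.6 and 35.8 FPKM with JOA and 38.5, 40.9 and 35.4 FPKM in control cells. Each PFKP value was higher with JOA than in the control library of the same number, as for 36.0% of all features, but the groups overlapped and the difference was 0.055 (SE 0.087, limma adjusted p = 0.790).

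PGAM1 (chromosome 10, 97426160 to 97433441), a phosphoglycerate mutase of the lower part of the pathway, had 160.2, 120.1 and 131 FPKM with JOA and 173, 134 and 138 FPKM in control cells. Replicate 1 was the highest in both groups and the groups overlapped, but each JOA library was below the control library of its number, as for 17.8% of all features. The difference was -0.11 (SE 0.13, limma adjusted p = 0.710), and with pairing its unadjusted p was 0.0225 and its adjusted p 0.105, in a fit where 31.2% of features had an unadjusted p under 0.05. With pairing and median-ratio scaling it was -0.18 (SE 0.035, limma adjusted p = 0.0424), and with pairing and quantile scaling -0.033 (adjusted p = 0.592), so the call for PGAM1 turned on the scaling. With pairing but without pair 1, 2 or 3 its adjusted p was 0.319, 0.228 or 0.207. ENO1 (chromosome 1, 8861000 to 8879250), the enolase that makes phosphoenolpyruvate, had 636, 537 and 403 FPKM with JOA and 554, 502 and 423 FPKM in control cells. Replicate 3 was the lowest ENO1 value in both groups, and the JOA values spanned a wider range than the control values. The ENO1 difference was 0.076 (SE 0.18, 95% interval -0.34 to 0.49, limma adjusted p = 0.866).

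**Figure D1:**
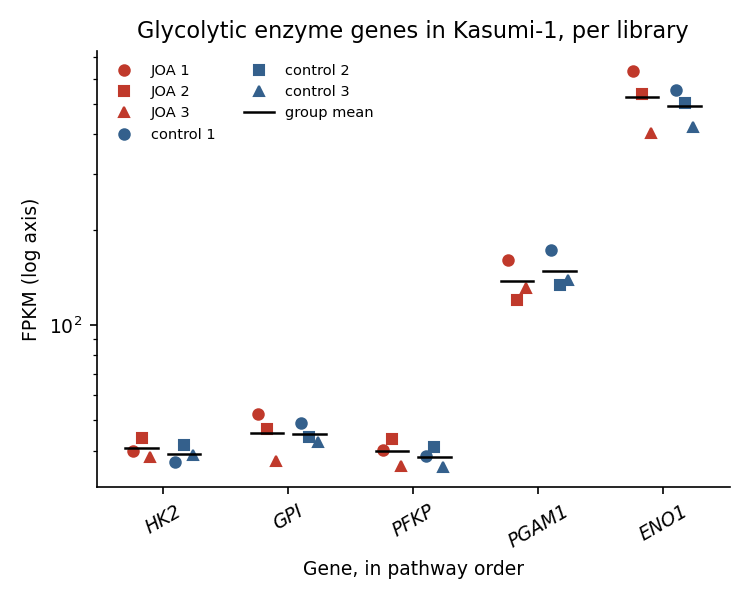
FPKM (log axis) of the 5 matched glycolytic genes in Kasumi-1 cells, a point per library, JOA (n = 3) left of control (n = 3), with bars for the group means. The groups overlap for all 5 genes, and ENO1 lies above the other 4.

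Summed over the 5 genes, Kasumi-1 cells had 929, 791 and 645 FPKM with JOA and 851, 762 and 678 FPKM in control cells, so the JOA values lay on both sides of the control values. Of the 5 changes 3 were positive, and 1 with median-ratio scaling of the libraries. The order of the levels was ENO1, which lay above 99.5% of the 12101 features tested, then PGAM1, whose range lay below that of ENO1 and above those of the other 3. GPI, HK2 and PFKP overlapped in range.

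In NB4 cells 9 of the 10 genes had lower means with JOA, but 0 were called. The test called 1 of 12932 genes (0.00773%), and 1 of the 10, GPI, had an unadjusted p under 0.05, a level that 1375 genes (10.6%) reached in either direction and 314 (2.43%) with lower values. The median change of the 10 genes was -0.14 on the log2 scale, against 0.085 over all genes tested, of which 33.8% were lower with JOA. The JOA libraries lay below both control libraries, with no overlap, for 4 of the 10 genes, GPI, PGAM1, ENO1 and LDHA, and for 11.0% of all genes tested. They lay above both control libraries for 0 of the 10, and for 32.5% of all genes.

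GPI differed by the most. It had 167 and 180.0 TPM in the JOA libraries and 209 and 229 TPM in the control libraries, so both JOA values were below both control values. The difference was -0.33 on the log2 scale (SE 0.10, 95% interval -0.57 to -0.096), or 0.794-fold, with an unadjusted limma p of 0.0123 and an adjusted p of 0.339. At the head of the pathway HK2 had 57.4 and 64.1 TPM with JOA and 63.2 and 66.8 TPM in control cells, a difference of -0.098 (SE 0.11, limma adjusted p = 0.773) with overlapping groups. PFKP had 77.9 and 82.2 TPM with JOA and 80.1 and 84.7 TPM in control cells, also overlapping, with a difference of -0.041 (SE 0.10, limma adjusted p = 0.909).

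In the middle of the pathway, where fructose 1,6-bisphosphate is split and the triose phosphates are interconverted, the groups overlapped. ALDOA (chromosome 16, 30064164 to 30070457), the aldolase, had 1491 and 1426 TPM with JOA and 1484 and 1834 TPM in control cells. TPI1 (chromosome 12, 6867119 to 6870948), triosephosphate isomerase, had 1026 and 936 TPM with JOA and 1016 and 1166 TPM in control cells. For both genes control 2 stood above the other 3 libraries, and the differences were -0.18 for ALDOA (SE 0.13, limma adjusted p = 0.641) and -0.15 for TPI1 (SE 0.11, limma adjusted p = 0.655).

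PGK1 (chromosome X, 77910739 to 78129296), the phosphoglycerate kinase that makes the first ATP of the pathway, had 526 and 566 TPM with JOA and 564 and 632 TPM in control cells, with a difference of -0.13 (SE 0.10, limma adjusted p = 0.676). PGAM1 had 527 and 521 TPM with JOA and 557 and 699.6 TPM in control cells. Its JOA libraries lay close together and below both control libraries, and the difference was -0.25 (SE 0.12, unadjusted p = 0.0796, limma adjusted p = 0.519). ENO1 had 1771 and 1784 TPM with JOA and 1815 and 2039 TPM in control cells, again without overlap, with a difference of -0.11 (SE 0.11, limma adjusted p = 0.728).

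PKM (chromosome 15, 72199029 to 72231822), pyruvate kinase, had 528 and 555 TPM with JOA and 477 and 603 TPM in control cells. The JOA values lay between the control values, and the difference was 0.013 (SE 0.13, 95% interval -0.28 to 0.31, limma adjusted p = 0.982). LDHA (chromosome 11, 18394388 to 18408425), the lactate dehydrogenase chain that makes lactate from pyruvate, had 810.2 and 910.0 TPM with JOA and 913 and 1130.3 TPM in control cells. The highest JOA value of LDHA lay just under the lowest control value, and the difference was -0.24 (SE 0.13, 95% interval -0.55 to 0.061, limma adjusted p = 0.547).

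**Figure D2:**
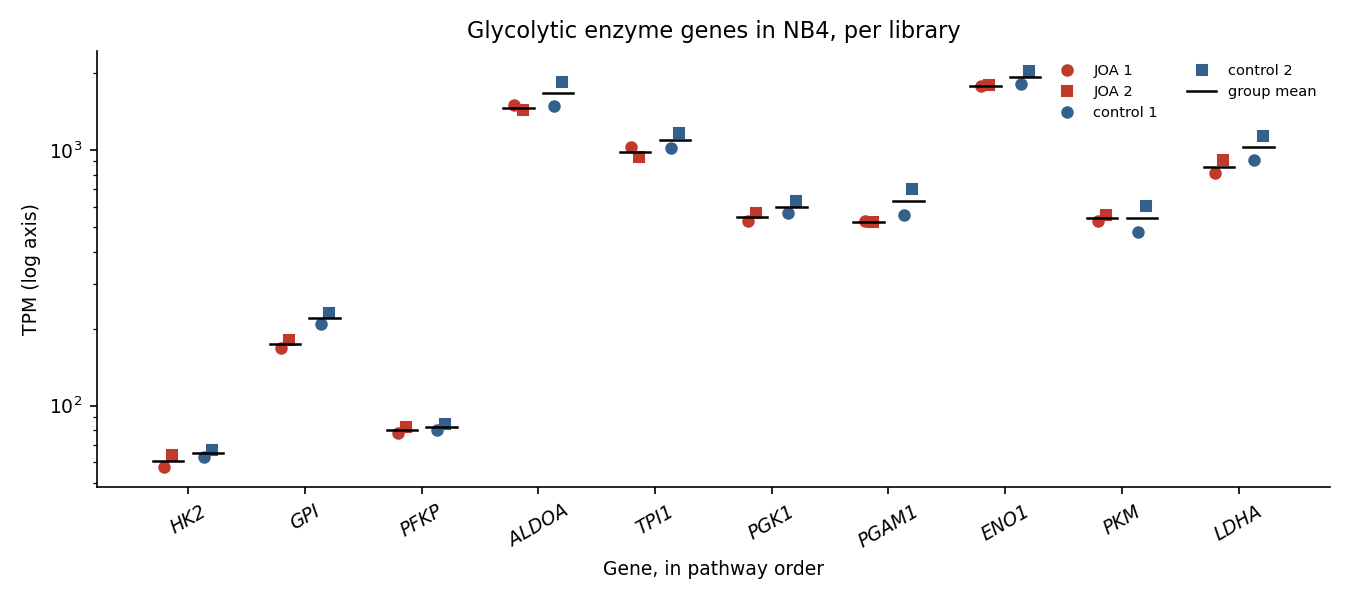
TPM (log axis) of the 10 glycolytic genes in NB4 cells, a point per library, JOA (n = 2) left of control (n = 2), with bars for the group means. The JOA points lie below both control points for GPI, PGAM1, ENO1 and LDHA, and the JOA points of PKM lie between its control points.

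The size of these differences moved with 1 control library. NB4 control 2 was above control 1 in 10 of the 10 genes, by 5.77% to 26.3%, against 38.2% of all genes tested. Without control 2 the median change of the 10 genes was -0.050 and 9 were negative, and without control 1 it was -0.23 and 10 were negative. The sums over the 10 genes were 6981 and 7025 TPM with JOA and 7179 and 8485 TPM in control cells, so that the JOA sums lay below both control sums. TPM is a share of a fixed total, and mitochondrially encoded transcripts held 11.2 and 13.1% of the TPM in the JOA libraries and 14.6 and 16.4% in the control libraries. With those transcripts left out, 10 of the 10 genes were negative, with a median of -0.20 and 0 called. With median-ratio scaling of the libraries the median was -0.24 and 10 of 10 were negative, PKM included. No glycolytic gene had an unadjusted p under 0.05 without control 2 or without JOA 1.

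Levels of the listed markers also differed between the NB4 groups, with 0 called without a replicate block. Of the 5 listed for promyelocytes and the line, 4 were lower with JOA, and the 5 summed to 469 and 309 TPM in the JOA libraries and 711 and 875 TPM in the control libraries. PRTN3, a granule protease, had 41.9 and 41.0 TPM with JOA and 141 and 257 TPM in control cells, with an unadjusted limma p of 2.54e-05 and an adjusted p of 0.0934. The 4 myeloid markers summed to 6184 and 4970 TPM with JOA and 8266 and 7982 TPM in control cells, nearly all of it MPO. MPO and CEBPA were lower without overlap, while the SPI1 groups overlapped, with a log2 change of -0.0025. CD33 was higher without overlap, with 72.2 and 75.4 TPM with JOA and 58.4 and 49.8 TPM in control cells (log2 change 0.45, limma adjusted p = 0.294). Among markers of other cell types, the 5 of epithelium and fibroblasts summed to 53.2 and 54.9 TPM with JOA and 39.3 and 38.3 TPM in control cells, with COL1A1 and COL1A2 under 1 TPM in every library. The 3 of T cells summed to 31.9 and 47.4 TPM with JOA and 26.2 and 27.4 TPM in control cells, nearly all of it CD3D, with CD3E and CD2 under 1 TPM. The B cell markers summed to 7.02 and 6.22 TPM with JOA and 5.84 and 5.97 TPM in control cells. The 3 erythroid markers were under the filter. The part of these differences in those of the glycolytic genes was not tested.

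ENO1 had the highest level and HK2 the lowest of the 10 genes in NB4 cells on the TPM scale, which is per length. ENO1 and ALDOA overlapped in range, as did TPI1 and LDHA, and as did PGAM1, PGK1 and PKM in turn. GPI, PFKP and HK2 followed, each below the range of the gene before it. HK2, the lowest, lay above 81.1% of the genes tested.

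Over the 5 genes measured in both lines, 0 of 5 differed in their change between Kasumi-1 and NB4 at an adjusted p under 0.05, in a test of the difference itself over all 10 libraries that called 14 of 7261 genes (0.193%). At an unadjusted p under 0.05 it also named 0 of 5, against 847 genes (11.7%). The change in Kasumi-1 minus the change in NB4 was 0.33 on the log2 scale for GPI (95% interval -0.050 to 0.71, limma adjusted p = 0.489). For ENO1 it was 0.19 (-0.33 to 0.71, adjusted p = 0.790), for HK2 0.15 (-0.11 to 0.42, adjusted p = 0.654), for PGAM1 0.14 (-0.30 to 0.58, adjusted p = 0.826) and for PFKP 0.096 (-0.19 to 0.38, adjusted p = 0.811). All 5 differences were positive, but every interval included 0. The tables were normalised separately, to FPKM and to TPM.

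**Figure D3:**
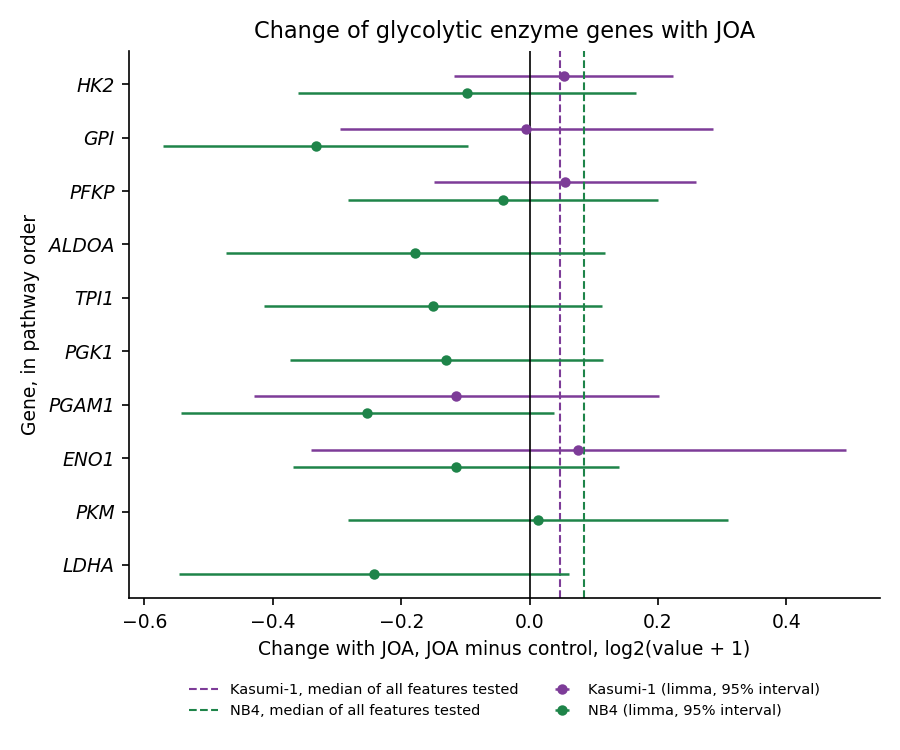
Change with JOA (log2 of value + 1, JOA minus control) of each glycolytic gene in Kasumi-1 (5 genes) and NB4 (10 genes), with 95% intervals. In NB4 the interval of GPI, -0.57 to -0.096, lies below 0, and the other intervals in both lines include 0.

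PKM makes its main products by mutually exclusive splicing, with an exon for PKM1, the form of muscle and brain, or an exon for PKM2, the form of proliferating cells. Both exons lie on the minus strand of chromosome 15 in GRCh38, the PKM1 exon at chr15:72203022-72203188 and the PKM2 exon at chr15:72202454-72202620. They have 167 bases each, of which 105 positions are the same (62.9%) and 62 differ. They are shown because the isoform values rest on telling them apart, with the differing positions in capitals.
PKM1 exon: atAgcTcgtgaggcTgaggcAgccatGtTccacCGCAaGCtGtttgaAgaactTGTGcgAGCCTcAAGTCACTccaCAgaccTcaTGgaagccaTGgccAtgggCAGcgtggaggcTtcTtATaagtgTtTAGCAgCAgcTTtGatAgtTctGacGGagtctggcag
PKM2 exon: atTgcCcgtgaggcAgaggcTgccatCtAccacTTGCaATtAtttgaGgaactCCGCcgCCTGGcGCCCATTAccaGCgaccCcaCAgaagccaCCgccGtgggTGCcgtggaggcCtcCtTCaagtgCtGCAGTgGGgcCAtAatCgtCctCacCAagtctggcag

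In NB4 cells the 6 transcripts with the PKM1 exon summed to 10.1 and 10.5 TPM in the JOA libraries and 11.5 and 17.4 TPM in the control libraries. The 4 transcripts with the PKM2 exon summed to 465 and 486 TPM with JOA and 411 and 523 TPM in control cells, and the 15 transcripts with neither exon to 53.0 and 58.5 TPM with JOA and 54.4 and 62.9 TPM in control cells. PKM2 was the main form in every library. The PKM1 share of the PKM1 and PKM2 total was 2.12 and 2.11% with JOA and 2.72 and 3.22% in control cells, a difference of -0.855 percentage points without overlap. The exact two-sided permutation test gave p = 0.333, the smallest value that 2 against 2 libraries allow, so this design cannot reach 0.05. Of 6 genes that regulate PKM splicing, limma called 0 in NB4 and 1 had an unadjusted p under 0.05, NEK2. This gene, a mitotic kinase reported to bind splicing factors of PKM, averaged 25.5 ± 1.60 TPM with JOA and 17.4 ± 0.968 TPM in control cells (SD, n = 2 each, log2 change 0.53, limma adjusted p = 0.290). HNRNPA2B1, a repressor of the PKM1 exon, averaged 1633 ± 28.5 TPM with JOA and 1749 ± 53.0 TPM in control cells (log2 change -0.098, adjusted p = 0.750), RBM4, which favours the PKM1 exon, was at 0.10, and PTBP1, another repressor of it, at -0.013. In Kasumi-1, where NEK2 alone of these was tested, it was at -0.079.

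**Figure D4:**
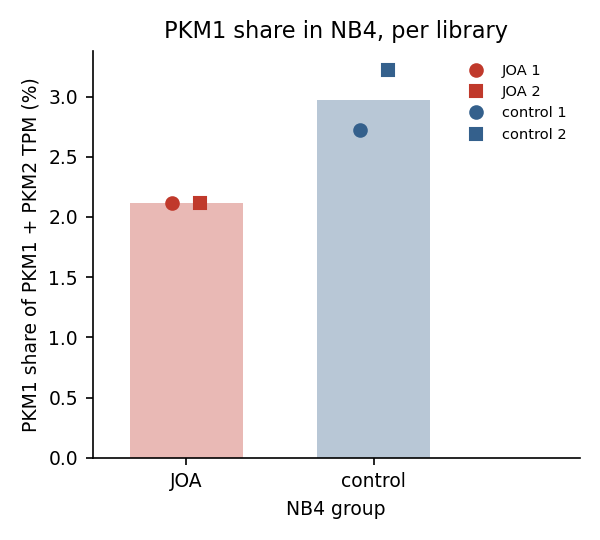
PKM1 share (percent of PKM1 plus PKM2 TPM) in NB4 cells, a point per library, JOA (n = 2) left of control (n = 2), with bars for the group means. The JOA points, 2.12 and 2.11%, lie below the control points, 2.72 and 3.22%.

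At the level of single transcripts, 0 of the 75 tested over the 10 genes in NB4 were called, in a test that called 0 of 51643 transcripts (0%). At an unadjusted p under 0.05, 5 of the 75 and 3469 of all transcripts (6.72%) were named, and the 5, TPI1-210, ALDOA-209, ENO1-207, ALDOA-201 and TPI1-205, were all lower with JOA, as were 1305 of all transcripts (2.53%). TPI1-210 had the lowest p, with 12.6 and 13.6 TPM with JOA and 20.0 and 21.0 TPM in control cells, a difference of -0.61 (SE 0.14, limma adjusted p = 0.731), and it made up 1.62% of the TPI1 level. Transcripts annotated as protein coding held on average 89.5 to 100% of the level of 8 of the genes. They held 70.4% of ALDOA with JOA and 69.5% in control cells, and 34.4% of PGK1 with JOA and 35.3% in control cells. Most of the PGK1 level was in PGK1-205, a non-coding processed transcript of 702 bases that held 57.1%, so the PGK1 values above are not mainly of its coding transcripts. The protein coding label also covers short transcripts. LDHA-221, of 576 bases, held 34.1% of the LDHA level, PFKP-205 (496 bases) 18.3% of PFKP and GPI-211 (571 bases) 11.6% of GPI. Whether these short transcripts hold a full coding sequence was not analysed here. Pseudogenes that have values in the NB4 table held at most 0.637% of the parent gene's level, which was for PKM, and annotated pseudogenes with no value there, among them those of ENO1, ALDOA and HK2, were not analysed here.

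The promoters of LDHA, PGK1 and GPI are shown as RefSeq gives them on GRCh38.p14, as windows of 300 bases around a transcript start, because LDHA and PGK1 are textbook HIF targets and GPI had the largest difference in NB4. Capitals mark ACGTG and GCGTG, the core of the HIF response element, on either strand (CACGT and CACGC where the match is on the other strand). CACGTG, the E-box that MYC binds, holds ACGTG on both strands and so counts as 2 matches. The windows are chr11:18394313-18394612 for LDHA, chrX:78103998-78104297 for PGK1 and chr19:34364742-34365041 for GPI, all on the plus strand.
LDHA: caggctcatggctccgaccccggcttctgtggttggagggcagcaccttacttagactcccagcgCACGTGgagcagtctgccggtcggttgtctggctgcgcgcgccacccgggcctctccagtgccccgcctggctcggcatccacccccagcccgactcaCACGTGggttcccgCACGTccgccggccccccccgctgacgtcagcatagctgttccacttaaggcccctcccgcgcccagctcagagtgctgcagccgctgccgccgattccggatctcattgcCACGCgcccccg
PGK1: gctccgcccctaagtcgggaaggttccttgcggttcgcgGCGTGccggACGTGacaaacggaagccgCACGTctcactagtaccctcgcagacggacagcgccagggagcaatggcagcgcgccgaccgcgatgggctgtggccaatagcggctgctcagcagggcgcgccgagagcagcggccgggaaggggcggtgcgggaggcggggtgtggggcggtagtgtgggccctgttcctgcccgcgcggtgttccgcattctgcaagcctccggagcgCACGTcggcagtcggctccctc
GPI: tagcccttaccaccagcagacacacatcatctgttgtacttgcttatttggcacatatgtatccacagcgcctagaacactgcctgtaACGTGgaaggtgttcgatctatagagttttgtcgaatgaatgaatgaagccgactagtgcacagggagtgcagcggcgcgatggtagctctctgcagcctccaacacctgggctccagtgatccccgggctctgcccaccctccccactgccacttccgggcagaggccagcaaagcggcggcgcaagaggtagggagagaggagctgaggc

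The LDHA window shown held 6 core matches, with 2 CACGTG among them, the PGK1 window 4 and the GPI window 1. Another LDHA window, chr11:18396101-18396400, which is not shown, held 1 core match and 0 CACGTG. Over the 18 windows of the 10 genes, 14 (77.8%) held a core match, against 17012 of all 35116 windows (48.4%), and 3 (16.7%) held CACGTG, against 7.26% of all windows. PGAM1 was the single gene with no core match in its window. A match is a description of these letters and not a site.

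The genes around the pathway were taken as 79 genes in 8 lists, of which 31 passed the filter in Kasumi-1 and 65 in NB4. 0 of the 31 and 0 of the 65 were called by limma, against 0% of all features in Kasumi-1 and 0.00773% in NB4. At an unadjusted p under 0.05, 1 of the 31 was higher and 3 were lower with JOA in Kasumi-1. There 16.4% of all features reached that level, 1416 higher and 566 lower. In NB4, 2 of the 65 were higher and 5 lower, where 10.6% of all genes reached it, 1061 higher and 314 lower. The median changes of the listed genes were -0.0076 in Kasumi-1 and -0.011 in NB4. Over all features tested in Kasumi-1 the median was 0.047, and 38.1% had negative changes. Over all genes tested in NB4 it was 0.085, and 33.8% had negative changes.

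Among other glycolysis enzymes 9 were tested in NB4, 3 with positive and 6 with negative changes and a median of -0.029. PFKM, the muscle form of phosphofructokinase, averaged 9.88 ± 0.388 TPM with JOA and 15.8 ± 1.08 TPM in control cells (SD, n = 2 each, log2 change -0.63, limma adjusted p = 0.268), without overlap. ALDOC, the brain aldolase, averaged 30.8 ± 6.54 TPM with JOA and 40.2 ± 4.22 TPM in control cells (log2 change -0.39, adjusted p = 0.474). The largest positive changes were those of BPGM, which makes 2,3-bisphosphoglycerate (0.14), and PFKL, the liver form of phosphofructokinase (0.028, and -0.072 with median-ratio scaling). In Kasumi-1, 3 of this list were tested, with a median of -0.040, and LDHB, the other lactate dehydrogenase chain, averaged 384 ± 21.1 FPKM with JOA and 427 ± 14.4 FPKM in control cells (SD, n = 3 each, log2 change -0.15, adjusted p = 0.319). The other 2 were HK1, the widely expressed hexokinase (0.086), and BPGM (-0.040).

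Of the transporters of glucose and lactate, 9 were tested in NB4, 6 with negative changes, and the median was -0.17. SLC2A5, a fructose transporter, averaged 16.4 ± 5.16 TPM with JOA and 26.2 ± 0.0267 TPM in control cells (SD, n = 2 each, log2 change -0.68, limma adjusted p = 0.333). Next lowest in this list in NB4 was SLC2A6 (-0.46), a hexose transporter at a low level, and the 2 highest were those of SLC16A7, a monocarboxylate carrier (0.27), and SLC2A3, a glucose transporter (0.18). SLC2A1, the main glucose transporter, averaged 68.3 ± 7.14 TPM with JOA and 88.2 ± 20.7 TPM in control cells, without overlap (log2 change -0.35, adjusted p = 0.510), and was named after its values were seen. All 3 transporters tested in Kasumi-1 had negative changes, with a median of -0.048, where 38.1% of all features were negative. SLC16A7 was near 0, at -0.0076. The groups did not overlap for SLC16A1, a lactate and pyruvate carrier, and 7.10% of all features were lower without overlap. SLC16A1 averaged 47.0 ± 1.31 FPKM with JOA and 50.4 ± 2.45 FPKM in control cells (limma adjusted p = 0.422). SLC2A1 was at -0.048. The list of enzymes that set the activity of phosphofructokinase had medians of 0.083 over 3 genes in Kasumi-1 and -0.077 over 5 genes in NB4. PFKFB4, which makes the activator fructose 2,6-bisphosphate, averaged 2.88 ± 2.11 FPKM with JOA and 1.67 ± 0.882 FPKM in control Kasumi-1 cells (log2 change 0.41, adjusted p = 0.694), and PFKFB3, of the same family, was at 0.083 and TIGAR, a fructose 2,6-bisphosphatase, at -0.030. In NB4 FBP1, the gluconeogenic bisphosphatase, was at 0.37, PFKFB2 at 0.022 (-0.026 with median-ratio scaling), PFKFB3 at -0.077, PFKFB4 at -0.27 and TIGAR at -0.29.

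The list of the mitochondrial pyruvate carrier, the pyruvate dehydrogenase complex and its regulators had medians of -0.085 over 9 genes in Kasumi-1, 5 of them negative, and -0.057 over 10 in NB4, 7 of them negative. The carrier genes were at -0.16 (MPC1) and -0.085 (MPC2, the median itself) in Kasumi-1, and at -0.16 and -0.14 in NB4. Both were named after their values were seen. DLD, the dihydrolipoamide dehydrogenase subunit, averaged 20.7 ± 1.16 FPKM with JOA and 24.2 ± 1.81 FPKM in control Kasumi-1 cells (SD, n = 3 each, log2 change -0.21). Its limma adjusted p was 0.230 without pairing, and 0.0415 with pairing, where it was lower in 3 of 3 pairs. The next lowest in Kasumi-1 was DLAT, the acetyltransferase subunit (-0.21), and the 2 highest were PDK2, a kinase that inhibits the complex (0.18), and PDHX, its binding protein (0.049, and -0.010 with median-ratio scaling). PDK1, a kinase that inhibits the complex, averaged 17.0 ± 0.549 TPM with JOA and 20.0 ± 0.773 TPM in control NB4 cells (log2 change -0.23, adjusted p = 0.589). PDK3, of the same family, was at -0.18, PDHX at 0.12 and PDP1, the phosphatase that activates the complex, at 0.065 (-0.025 with median-ratio scaling).

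In the pentose phosphate and serine branches, PGD, an NADPH-producing dehydrogenase, had the lowest p of the lists in Kasumi-1. It averaged 184 ± 6.17 FPKM with JOA and 150.5 ± 2.15 FPKM in control cells, without overlap (SD, n = 3 each, log2 change 0.29, limma adjusted p = 0.116, and 0.0304 with pairing). RPIA, which makes ribose 5-phosphate, averaged 40.6 ± 4.63 FPKM with JOA and 48.2 ± 3.50 FPKM in control cells (log2 change -0.25, adjusted p = 0.261, and 0.0362 with pairing), and PSAT1, of serine synthesis, was at -0.21. In NB4, PGD averaged 182 ± 4.31 TPM with JOA and 163 ± 14.2 TPM in control cells (log2 change 0.16, adjusted p = 0.617). The lowest changes of this list in NB4 were those of TALDO1, transaldolase (-0.096), and RPIA (-0.083).

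Of the HIF pathway and hypoxia genes, 6 of 7 were positive in Kasumi-1, with a median of 0.073, and 8 of 13 in NB4, with a median of 0.10. Positive changes made up 61.9% of all features tested in Kasumi-1, where the median was 0.047. In NB4 they made up 66.2% of all genes tested, with a median of 0.085. With median-ratio scaling 3 of 7 were negative in Kasumi-1, with a median of 0.0082, and 6 of 13 in NB4, with a median of 0.0038. P4HA1, a collagen prolyl hydroxylase, averaged 38.2 ± 11.6 FPKM with JOA and 28.1 ± 5.95 FPKM in control Kasumi-1 cells (SD, n = 3 each, log2 change 0.40, limma adjusted p = 0.465, and 0.0379 with pairing). BNIP3, a mitophagy receptor and HIF target, averaged 139 ± 1.09 TPM with JOA and 177 ± 17.9 TPM in control NB4 cells (SD, n = 2 each, log2 change -0.35, adjusted p = 0.340). In Kasumi-1, ARNT, the partner of HIF1A, was next highest to P4HA1 (0.20) and the single negative gene was MXI1, a MYC antagonist (-0.032). In NB4 the lowest was ANKRD37, a HIF target (-0.44), and the 2 highest were ADM, which encodes adrenomedullin (0.32), and VEGFA, the angiogenic growth factor (0.20). MYC averaged 484 ± 37.2 TPM with JOA and 569 ± 7.93 TPM in control NB4 cells (log2 change -0.23, adjusted p = 0.468), and 297 ± 9.66 FPKM with JOA and 297 ± 20.4 FPKM in control Kasumi-1 cells (log2 change 0.0020, and -0.066 with median-ratio scaling, adjusted p = 0.993). With pairing 4 of the 31 Kasumi-1 genes passed the test, PGD and P4HA1 higher and DLD and RPIA lower, in the fit that called 8.14% of all features. That fit called 0 features without pair 1 or without pair 3, and 68 without pair 2, and without any 1 pair none of these 4 was called (adjusted p from 0.0668 to 0.142). With pairing and quantile scaling 3 of the 31 passed, in a fit that called 515 of 12101 features, 315 higher and 200 lower. These were PGD, higher (adjusted p = 0.0392), and DLD (0.0487) and DLAT (0.0470), both lower, and not RPIA (0.0613) or P4HA1 (0.0549). With pairing and median-ratio scaling 8 passed, the same 4 and, all lower, LDHB (0.0396), MPC1 (0.0337), DLAT (0.0314) and PSAT1 (0.0396), in the fit that called 9.26% of features.

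**Figure D5:**
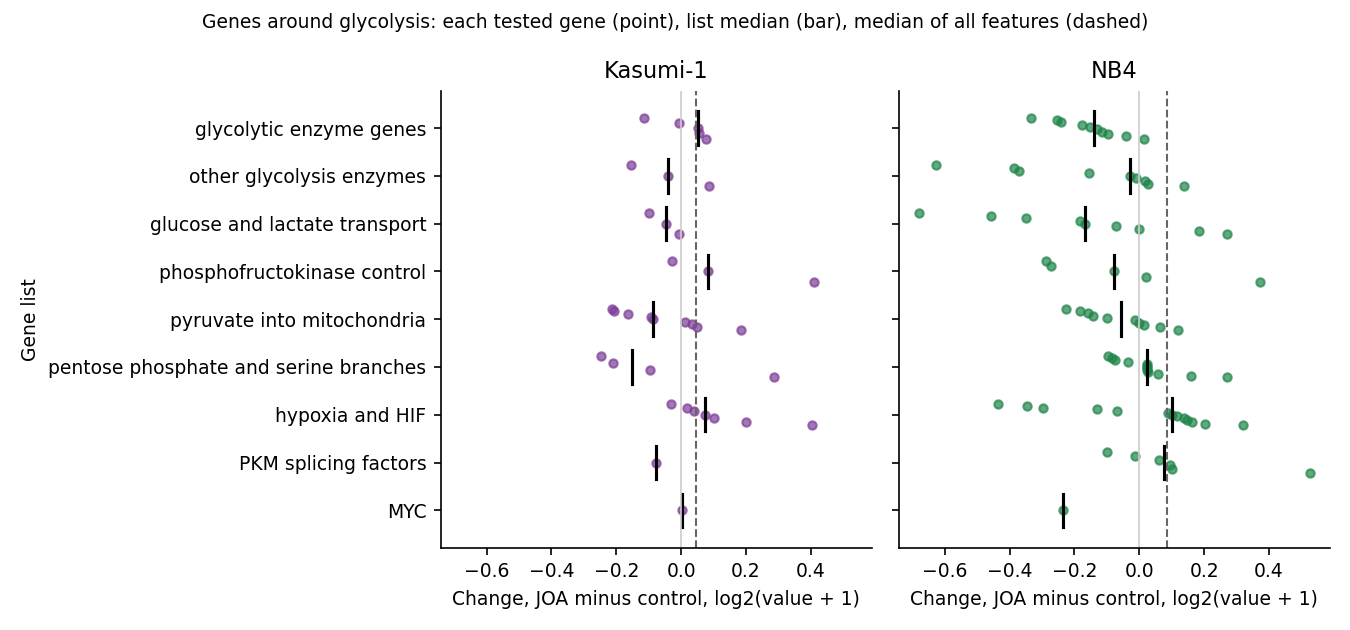
Changes with JOA (log2 of value + 1, JOA minus control) of the genes in each list that passed the filter, a point per gene, for Kasumi-1 and NB4, with the median of each list and the median of all features tested. The 10 glycolytic genes in NB4 have a median of -0.14, below the all-gene median of 0.085.

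Over the 10 libraries, centred within each line, genes whose log2 values were among the 5 most like the mean of the 5 glycolytic genes measured in both lines were TEF (Pearson r = 0.913), MPC2 (0.889), PGM1 (0.882) and PFKFB4 (0.878), out of 5764 genes ranked. These correlations describe 10 libraries, and the genes were picked as the highest of those ranked. Differences in depth or preparation among the libraries of a line may enter these correlations, which was not tested.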

How the data were processed

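Messenger RNA was measured in 10 libraries, and the authors deposited 1 table per line. The authors deposited FPKM for Kasumi-1, as the file is named, with 29053 sequence records as its labels. The NB4 values, deposited for 121005 transcripts, were read as TPM because each library sums to 999679 to 999758, although the file is named for FPKM, so the planned log-scale test was kept. Libraries were TruSeq stranded mRNA, per the labels' protocols. Trimmomatic, HISAT2, Cufflinks, HTSeq and hg38 are named, without versions or roles, in the submitters' processing notes. Of the Kasumi-1 rows, 10906 (37.5%, holding 45.8% of the FPKM) were matched to 10802 symbols through RefSeq records, and of these 5 glycolytic genes only GPI matched with the current record version. Unmatched rows stayed in the fit, except 3 that name no record. NB4 transcripts (93.9% found in GENCODE 29) were added up into 21944 genes, leaving 3.06% of the TPM unassigned.

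Kasumi-1 sums were 265824 to 277629 FPKM, and relative depth, from the step between low values, was 91.4 to 100% of the deepest library. NB4 depth is unknown, since TPM keeps none. Values were tested as log2(value + 1) with limma 3.58.1 (R 4.3.3) with a variance trend, over features at 1 or more in at least 3 Kasumi-1 or 2 NB4 libraries, with Benjamini-Hochberg adjustment. The lines were compared by the difference of their changes over all 10 libraries. The fits were tested on simulated data. Alternatives tried were the replicate block, a pseudocount of 0.1, other scalings, no filter, mitochondrial transcripts left out and each library left out.

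Replicate numbers of Kasumi-1 were taken as pairs because same-numbered libraries deviated together from their group means (correlations of 0.33, 0.5 and 0.424). None of the other correlations was above -0.061. Centring on group means leaves these negative on balance once the same-numbered ones are positive, so they add no separate support. The pairing comes from the values and not from the labels. All 10 genes were named whatever their result, with, per related list and line, the 2 largest rises and 2 largest falls by log2 change among genes past the filter, and the 5 genes most like the mean. Of the genes so chosen, 2 are not reported here. The genes and lists were chosen with earlier results of these data known.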

Additional observations from a re-analysis of the deposited data

Results flagged for a closer look

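The change with JOA differed between Kasumi-1 and NB4 for 14 of the 7261 genes tested for it (0.193%), in a direct test of the difference, and none of the 5 glycolytic genes measured in both lines was among them. The count was 2 with a pseudocount of 0.1 and 1 with the libraries rescaled to a common sum, and leaving out 1 library moved it from 2 to 100.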

How the results depend on the processing

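Without pairing, the count of called features in Kasumi-1 was 0, with all replicates and without any 1 of them (0 to 0). The replicate block, that is pairing by replicate number, gave 985 (736 higher and 249 lower with JOA), and added after the data were seen, 1120 with median-ratio scaling (457 higher, 663 lower), 515 with quantile scaling and 0 to 68 without 1 pair. Of the 5 glycolytic genes 0 were called in these fits, except 1, PGAM1, with the block and median-ratio scaling (adjusted p = 0.0424). In NB4 same-numbered libraries correlated at 0.066 and were not taken as pairs, and the count of 1 became 157 with the block, 156 with variance shared over both lines, and 0 with a pseudocount of 0.1, median-ratio scaling, quantile scaling or no filter, and 1 to 6 without 1 library. In the test of the difference between lines, 14 became 36 with the block, 2 with a pseudocount of 0.1, 1 with libraries rescaled to a common sum, 4 with the filter passed in both lines, and 2 to 100 without 1 library, the highest without NB4 control 1. No transcript was called in NB4 under any alternative. None of the 10 genes was called in NB4 under any alternative, nor any of the 5 in the difference between lines or, apart from that 1, in Kasumi-1. The block alone changed no call of the 10 genes. Of the 31 related genes tested in Kasumi-1 it changed 4, to called, all printed in the report, where it called 8.14% of all features. Of the 15 NB4 markers tested the block changed 3 to called, all lower with JOA: PRTN3 (adjusted p = 1.35e-05), CTSG (0.00396) and MPO (0.00955). That fit called 157 of 12932 genes, 99 higher and 58 lower, and treats NB4 libraries as pairs, which the correlation of 0.066 gave little ground for. The PKM1 share difference ran from -1.10 to -0.606 percentage points without 1 library, and its exact permutation p was 0.5 with the block.

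Among the 10 genes, changes turned sign in Kasumi-1 for HK2 (-0.013 with median-ratio scaling), GPI (0.043 with quantile scaling) and PFKP (-0.011 with median-ratio scaling). Without 1 library the range was -0.00033 to 0.099 for HK2, -0.11 to 0.13 for GPI, -0.010 to 0.13 for PFKP and -0.075 to 0.25 for ENO1. PGAM1 in Kasumi-1, without pairing, stayed negative but ran from -0.23 without JOA 1 to -0.00052 without control 1. PKM in NB4 was -0.087 with median-ratio scaling and -0.044 with mitochondrial transcripts left out, and ran from -0.16 to 0.18 without 1 library, and the difference of PGAM1 between lines ran from -0.026 to 0.30, negative only without NB4 control 2. Of the pathway genes around them, sign turned with median-ratio scaling in Kasumi-1 PDHX (-0.010), MYC (-0.066), and with quantile scaling in Kasumi-1 PDHX (-0.016), and with median-ratio scaling in NB4 PFKL (-0.072), PFKFB2 (-0.026), PDP1 (-0.025), and with mitochondrial transcripts left out in NB4 PFKL (-0.030), PFKFB2 (-0.0053), and with quantile scaling in NB4 PFKFB2 (-0.023), PDP1 (-0.064). Without 1 library in Kasumi-1, the ranges that crossed 0 were -0.17 to 0.040 for BPGM, -0.12 to 0.019 for TIGAR, -0.16 to 0.042 for NEK2, -0.15 to 0.046 for MXI1, -0.051 to 0.047 for MYC, -0.028 to 0.15 for PDHX, -0.13 to 0.035 for SLC2A1. Without 1 library in NB4, the ranges that crossed 0 were -0.035 to 0.090 for PFKL, -0.66 to 0.081 for TIGAR, -0.14 to 0.78 for ADM, -0.086 to 0.060 for PTBP1, -0.26 to 0.30 for PFKFB2, -0.067 to 0.20 for PDP1, -0.22 to 0.033 for TALDO1.

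Limits are set by 2 or 3 libraries a group, by the 5 genes not analysed here in Kasumi-1, by the unknown depth in NB4 and by control 2 of NB4, which is above control 1 in every one of the 10 genes. The 95% interval of ENO1 in Kasumi-1, -0.34 to 0.49, is the widest of the 5 genes there, and sizes inside it cannot be told from 0.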
